A study of Homo sapiens and Homo sapiens
Mus musculus with 19 samples.

Results

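The genes described here are 43 human genes of the ATF4 stress response and the tRNA synthetases, chosen by name from the 57820 genes of the human count table. They comprise ATF4 and 6 further transcription factors, 4 stress effectors, 12 enzymes of amino acid and one-carbon metabolism, 5 amino acid transporters, the secreted hormone STC2, the lipoprotein receptor VLDLR and 13 aminoacyl-tRNA synthetases. Of the 43 genes, 41 were among the 10889 protein-coding genes tested, and VLDLR and NUPR1 had too low a level per length in every library to be tested with them.

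ATF4 is a transcription factor whose mRNA is translated more efficiently when the initiation factor eIF2 is phosphorylated, as happens when cells lack amino acids or haem, carry unfolded proteins in the endoplasmic reticulum or meet double-stranded RNA. It then raises the transcription of genes that take up and make amino acids, charge tRNAs and, under prolonged stress, favour cell death, often by binding with a C/EBP partner to a composite DNA element. Cancer cells, among them neuroblastoma (NB) cells with MYCN amplification, are known to draw on this programme to meet their demand for amino acids and glutathione.

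RNA had been measured in SK-N-Be2c, an established human NB cell line with MYCN amplification, grown in culture or as tumors in mice. The Control group of cells was 3 clones with wild-type TWIST1, and the sgTWIST1 group was 3 clones whose TWIST1 had been knocked out with CRISPR/Cas9 and a single guide RNA. The sample labels call the cell samples clones, while the methods call them biological replicates. The tumors were 4 Control and 4 sgTWIST1 ortho_1 tumors, grown after injection of the respective cells into the left adrenal gland of athymic Swiss nude mice, which lack T cells. All values of log2(FC) for Control against sgTWIST1 are positive where the gene was higher in Control.

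Human counts per sample ranged from 21426528 to 49991029. TWIST1 was measured at 46.9 to 56.4 CPM (read counts of a gene scaled to a common library size) in Control clones and at 17.4 to 26.1 CPM in sgTWIST1 clones, and at 65.1 to 80.6 and 18.8 to 36.9 CPM in the corresponding tumors, so the edited gene was lower but its RNA was still present. The paper reports complete loss of the wild-type TWIST1 protein in the sgTWIST1 cells. All 8 NB markers were detected in every sample. Mouse counts made up 2.44% to 12.7% of the counts of Control tumors and 3.77% to 13.97% of those of sgTWIST1 tumors (two-sided exact permutation test, p = 0.629, n = 4 each). Human counts of 3 endothelial markers summed to 15.9 to 59.1 CPM in sgTWIST1 tumors and to 4.41 to 9.20 CPM in Control tumors, and in cells to 3.28 to 8.25 and 1.59 to 3.82 CPM. Those of 4 macrophage markers summed to 0.550 to 5.83 CPM over all tumors. For 4 skeletal muscle markers the sums were 43.3 to 72.6 CPM in Control tumors and 37.5 to 73.6 CPM in sgTWIST1 tumors. In cells these were 19.0 to 27.4 CPM in Control and 11.3 to 19.85 CPM in sgTWIST1. Sums of 4 adrenal cortex markers were 2.78 to 11.8 CPM over all samples. The part of these markers in the results below was not tested. In a bulk sample fewer cells that express a gene and less RNA per cell cannot be told apart.

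Control clone 2 stood apart from the other Control clones. It had the highest level of the 3 Control clones for 32 of the 43 genes and for 4763 of the 10889 genes tested, and was more than 1 log2 unit above the mean of the others for 5 of them (11.6%) and for 4.74% of all genes tested. CHAC1 showed the widest gap, with 57.4 CPM in Control clone 2 against 7.91 and 11.6 CPM in Control clones 1 and 3. DDIT4 was at 128.8 CPM in Control clone 2 and at 29.7 and 53.3 CPM in the others. DDIT3, which encodes the stress factor CHOP, was at 37.4 CPM there and at 12.9 and 16.9 CPM in the others. Both labelled batches of Control clone 2 showed this, since CHAC1 was at 61.4 and 54.7 CPM in its 2 batches. Values of single genes and of the main counts without this clone are given below where it moved them. Medians of log2(FC) over sets of genes include this clone wherever Control cells are compared, and were not recalculated without it.

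The composite element to which ATF4 and its C/EBP partners bind (CARE, TGATGNAA on either strand) was searched in promoters, from 250 bases before to 50 bases after the transcription start, because it is the sequence through which genes of this set are known to respond. RefSeq promoters of GRCh38.p14 were at hand for 30 of the 43 genes. The element was present in 10 of these 30 promoters (33.3%) and in 3.67% of the 27305 promoters of the whole RefSeq table, and no match overlapped an E box. The E box CACGTG was present in 16.7% of the 30 and in 7.43% of all promoters, and the E box CATCTG, the form that TWIST1 is known to bind, in 6.67% of the 30 (ATF4 and ATF3) and in 14.8% of all. Among the 8894 promoters of genes tested, CARE was present in 1.57%, CACGTG in 10.5% and CATCTG in 8.64%, close to its share of the 30. In the 250 bases before the start alone, 6 of the 30 promoters held the CARE. Shares are descriptions, and a match does not show binding. The following 6 matches are shown because their genes differ in how they moved. Each is written 5′ to 3′ on the strand of the gene, with the element in capitals, and was placed in GRCh37 by exact match.
CHAC1 (chr15:41245449-41245478, plus strand): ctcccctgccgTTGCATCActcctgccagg
ATF3 (chr1:212738547-212738576, plus strand): aaaggtcaggaTGATGGAAggctgtcatat
ASNS (chr7:97501770-97501799, minus strand): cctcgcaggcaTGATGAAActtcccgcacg
AARS (chr16:70323578-70323607, minus strand): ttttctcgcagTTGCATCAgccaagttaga
IARS (chr9:95055974-95056003, minus strand): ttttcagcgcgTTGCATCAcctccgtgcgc
TARS (chr5:33441062-33441091, plus strand): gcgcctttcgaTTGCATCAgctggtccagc
The other promoters with the element were those of MTHFD1L, SLC3A2, CARS and NARS.

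The first comparison asked which of these genes differed between Control and sgTWIST1 cells. More of them were higher in Control than in sgTWIST1 clones: 16 of the 41 passed the test with higher levels (19.4% of all genes tested passed in that direction) and 4 with lower levels (17.6% of all genes). DE genes, whose log2(FC) also reached 1 in either direction, were 8 upregulated (8.15% of all genes) and 3 downregulated (6.39% of all genes). The median log2(FC) of the 41 genes, with Control clone 2 included, was 0.51, against −0.01 over all genes tested. Without Control clone 2 there were 15 higher and 5 lower, of which 6 and 3 were DE. GPT2 (log2(FC) 0.95) and AARS (0.94) still passed without it but were under the DE threshold. The test was the quasi-likelihood test of edgeR with Benjamini-Hochberg adjustment over all genes, and groups of 3 against 3 cannot give less than 0.1 in an exact permutation test of a single gene.

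**Figure D1:**
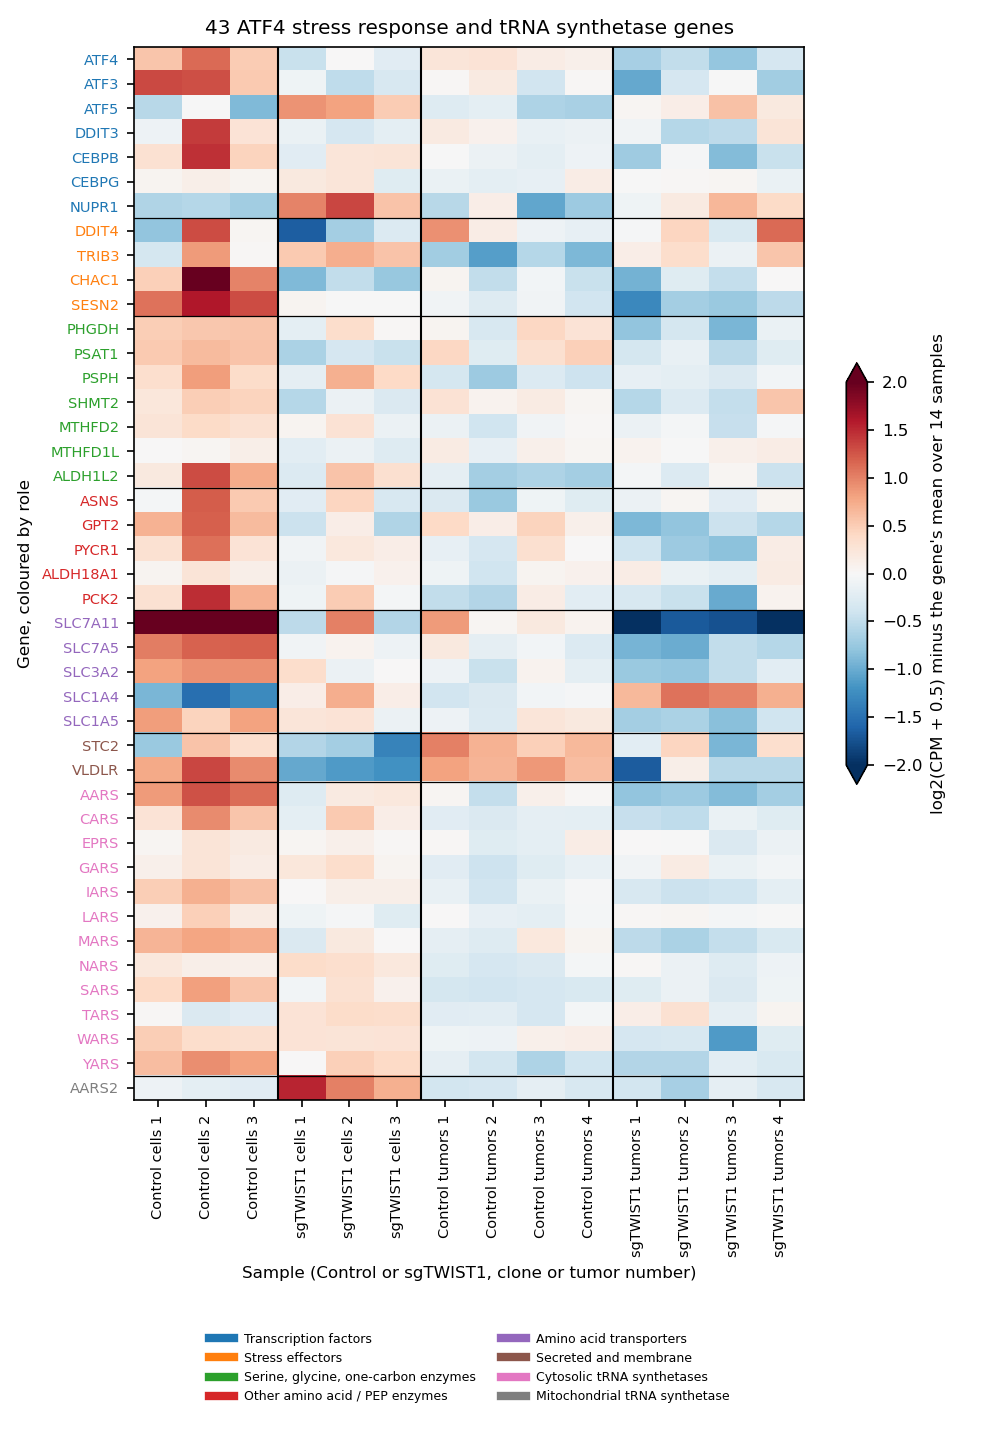
Level of each of the 43 genes (vertical axis, coloured by role) in each of the 14 samples (horizontal axis), as log2(CPM + 0.5) minus the mean of the gene over all samples, with colours ending at 2 log2 units either way. Among the Control clones, clone 2 is the darkest red for DDIT3, DDIT4, CHAC1 and ASNS, SLC7A11 is high in all Control clones and lowest in sgTWIST1 tumors, SLC1A4 is lowest in Control clones, and AARS2 is high in sgTWIST1 clones.

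Of the 6 transcription factors tested in cells, 2 were higher in Control, 1 was lower and 3 did not pass. ATF4, on chromosome 22 (39915700 to 39918688 in GRCh37), was at 379.9, 567.6 and 371.2 CPM in Control clones 1 to 3 and at 190.4, 261.2 and 220.9 CPM in sgTWIST1 clones 1 to 3. Its groups did not overlap, and the lowest Control clone was well above the highest sgTWIST1 clone. The log2(FC) of ATF4 was 0.97 ± 0.20 (SE, edgeR adj p value 0.00953), just under the DE threshold, and 0.75 without Control clone 2 (adj p value 0.00363). Per exon length ATF4 was first among the 43 genes, at a mean of 108.7 RPKM over the 4 groups, followed by the glutamyl-prolyl-tRNA synthetase EPRS at 79.1 RPKM. This order depends on the length used, which joins all annotated exons of a gene and was 2613 bases for ATF4 but 22418 bases for IARS.

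ATF3, a stress-induced repressor and activator of the same family, was DE in cells. It was at 17.5, 17.0 and 9.80 CPM in Control clones and at 6.31, 4.58 and 5.28 CPM in sgTWIST1 clones, with a log2(FC) of 1.45 ± 0.27 (edgeR adj p value 0.00548). ATF5, another ATF4-related factor that also serves the mitochondrial stress response, went the other way. It was at 4.03, 6.11 and 3.12 CPM in Control and at 11.9, 11.1 and 8.95 CPM in sgTWIST1 clones, a log2(FC) of −1.27 ± 0.28 (edgeR adj p value 0.0111). The factors CEBPB (log2(FC) 0.75, or 0.30 without Control clone 2) and DDIT3 (0.91 ± 0.37, edgeR adj p value 0.0928, or 0.34 without Control clone 2) did not pass, and CEBPG, a partner of ATF4, had a log2(FC) of −0.00 and did not pass either. DDIT3 shares its locus with MARS on the opposite strand, so its reads and those of MARS could be mixed where counting ignored strand. The same holds for 3 genes that were DE in cells and overlap coding genes on the opposite strand. These are ATF5 (IL4I1 and NUP62 among others), AARS (DDX19B) and AARS2 (TMEM151B among others). NUPR1, a small stress-induced nuclear protein that was too low to be tested with the rest, was at 0.180, 0.191 and 0.133 CPM in Control and at 1.56, 2.09 and 1.03 CPM in sgTWIST1 clones. With a count filter in place of the RPKM threshold its log2(FC) in cells was −3.26 ± 0.45 (edgeR adj p value 0.00109).

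Among the 4 stress effectors, CHAC1 and SESN2 were DE in cells and higher in Control. CHAC1, which breaks down glutathione, was at 2.81, 3.83 and 3.09 CPM in sgTWIST1 clones, below all 3 Control clones. Its log2(FC) of 2.97 ± 0.74 (edgeR adj p value 0.0188) was the highest of the 41 genes. The size rested on Control clone 2, without which it was 1.59 ± 0.26 (adj p value 0.00238). The call was also lost when any 1 of the sgTWIST1 clones was left out, with adj p values of at most 0.0749. SESN2, an inhibitor of mTORC1 signalling, was at 16.8, 24.4 and 19.7 CPM in Control and at 7.96, 7.62 and 7.63 CPM in sgTWIST1 clones. Its log2(FC) was 1.39 ± 0.17 (edgeR adj p value 0.00109), and 1.25 without Control clone 2. DDIT4, another inhibitor of mTORC1, had a log2(FC) of 1.21 ± 0.56 and did not pass (edgeR adj p value 0.128, or 0.0429 with the clone number as a replicate block). Without Control clone 2 the log2(FC) of DDIT4 was 0.47 (adj p value 0.367). TRIB3, a pseudokinase that restrains ATF4, was at 18.2, 42.8 and 23.8 CPM in Control and at 33.9, 39.3 and 34.9 CPM in sgTWIST1 clones. It did not pass (log2(FC) −0.36 ± 0.29, edgeR adj p value 0.370), but without Control clone 2 it was lower in Control with a log2(FC) of −0.77 ± 0.15 (adj p value 0.00558).

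**Figure D2:**
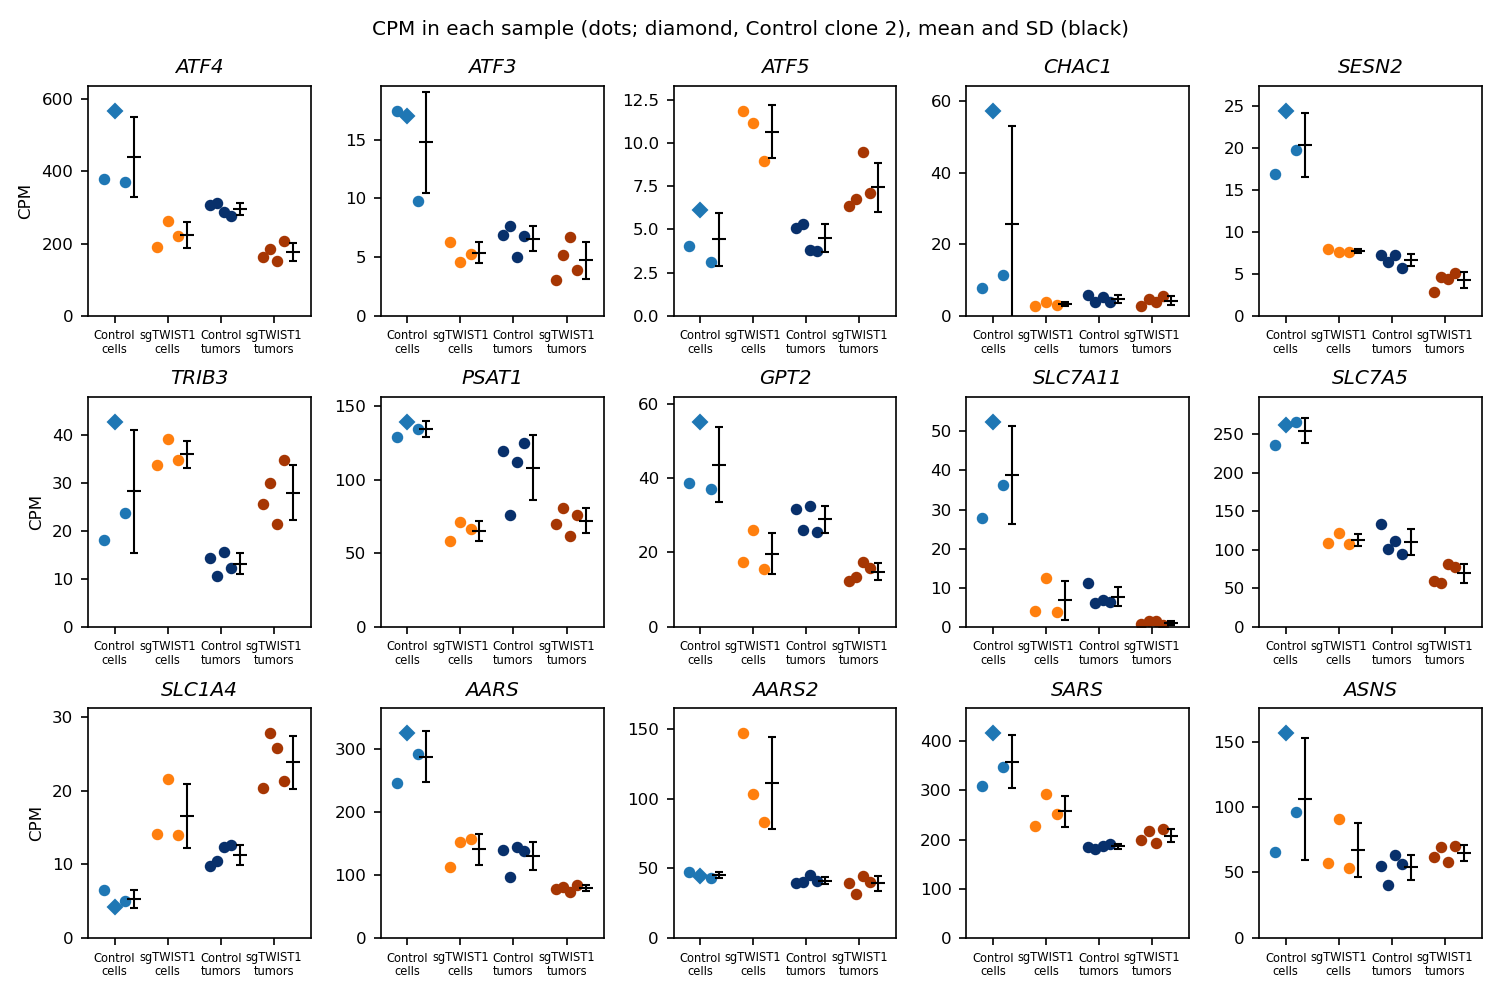
CPM of 15 of the genes in each sample of the 4 groups (dots on a linear axis from 0, diamond for Control clone 2), with the mean and SD of each group in black. The lower SD bar of CHAC1 in Control cells is cut at 0. CHAC1 and ASNS are drawn up by the diamond in Control cells, ATF4 is higher in Control in both cells and tumors, and AARS2 is high in sgTWIST1 cells alone among the 4 groups.

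The 7 enzymes of serine, glycine and one-carbon metabolism included 2 that were higher in Control cells and 5 that did not pass, with log2(FC) values of 0.17 and above. PSAT1, which makes phosphoserine, was at 128.9, 139.4 and 134.5 CPM in Control and at 58.1, 71.5 and 66.2 CPM in sgTWIST1 clones, a log2(FC) of 1.04 ± 0.12 (edgeR adj p value 0.000711). The mitochondrial SHMT2, which splits serine to glycine, had a log2(FC) of 0.70 ± 0.15. Of the 5 enzymes for asparagine, alanine, proline and mitochondrial phosphoenolpyruvate, the alanine transaminase GPT2 was DE, at 38.6, 55.1 and 37.1 CPM in Control and at 17.5, 26.0 and 15.5 CPM in sgTWIST1 clones (log2(FC) 1.14 ± 0.24, edgeR adj p value 0.00951). ASNS, which makes asparagine, did not pass. It was at 65.7, 156.9 and 96.5 CPM in Control and at 57.1, 91.0 and 53.8 CPM in sgTWIST1 clones (log2(FC) 0.65 ± 0.33, edgeR adj p value 0.168), and its groups overlapped. With the replicate block, ASNS (0.61, edgeR adj p value 0.0274), PCK2 (0.71, 0.0124), ALDH1L2 (0.54, 0.0162), PHGDH (0.47, 0.0471) and the cysteinyl-tRNA synthetase CARS (0.44, 0.0218) passed as well. Without Control clone 2 and without the block, none of these 5 passed, and the log2(FC) was 0.28 for ASNS (adj p value 0.411), 0.37 for PCK2 (0.181), 0.25 for ALDH1L2 (0.472), 0.45 for PHGDH (0.0518) and 0.25 for CARS (0.372).

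All 5 amino acid transporters passed in cells, 4 of them higher in Control. SLC7A11, which imports cystine for glutathione, was at 27.9, 52.5 and 36.2 CPM in Control and at 4.05, 12.6 and 3.84 CPM in sgTWIST1 clones. The log2(FC) of SLC7A11 was 2.49 ± 0.50 (edgeR adj p value 0.00805), and 3.31 without sgTWIST1 clone 2. SLC7A5, the large neutral amino acid transporter, was at 236.4, 261.5 and 266.5 CPM in Control and at 109.5, 121.6 and 107.5 CPM in sgTWIST1 clones (log2(FC) 1.17 ± 0.11, edgeR adj p value 0.000342). Its heavy chain SLC3A2, which also pairs with SLC7A11, had a log2(FC) of 0.79 ± 0.14 (edgeR adj p value 0.00493), and the glutamine transporter SLC1A5 one of 0.57 ± 0.16 (edgeR adj p value 0.0305). The call of SLC1A5 was lost without any 1 of the clones other than Control clone 2. SLC1A4, the alanine, serine and cysteine transporter ASCT1, was the gene of the set with the lowest log2(FC). It was at 6.58, 4.20 and 4.99 CPM in Control and at 14.2, 21.7 and 14.1 CPM in sgTWIST1 clones (log2(FC) −1.66 ± 0.27, edgeR adj p value 0.00317).

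The 12 cytosolic tRNA synthetases had a median log2(FC) of 0.40 in cells, with 5 higher in Control, 1 lower and 6 that did not pass. The alanyl-tRNA synthetase AARS was DE, at 245.0, 325.7 and 291.9 CPM in Control and at 112.8, 152.6 and 156.5 CPM in sgTWIST1 clones (log2(FC) 1.03 ± 0.17, edgeR adj p value 0.00380). MARS, IARS, YARS and SARS passed with a log2(FC) of 0.74, 0.51, 0.48 and 0.48, and the threonyl-tRNA synthetase TARS with −0.49. The calls of IARS, SARS, TARS and YARS were each lost when 1 of several clones was left out, YARS also without Control clone 2. AARS2, the mitochondrial alanyl-tRNA synthetase and the only one of the 43 genes grouped here as mitochondrial, was at 47.5, 44.5 and 43.3 CPM in Control and at 147.7, 103.2 and 83.4 CPM in sgTWIST1 clones. Its log2(FC) was −1.30 ± 0.20 (edgeR adj p value 0.00282), and the lowest sgTWIST1 clone was far above the highest Control clone.

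Of the 10 genes with a CARE in the promoter, 5 were higher in Control cells, 1 (TARS) was lower and 4 did not pass, with a median log2(FC) of 0.58. Of the 19 tested genes whose promoter lacked it, 5 were higher, 2 were lower and 12 did not pass, with a median of 0.57. In tumors 1 of the 10 with the element was higher in Control and 9 did not pass, while 8 of the 19 without it were higher, 3 were lower and 8 did not pass. Over all genes tested, 19.4% passed as higher and 17.6% as lower in Control cells, and 23.6% and 23.7% in Control tumors.

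STC2, a secreted glycoprotein hormone, did not pass in cells (log2(FC) 1.00, edgeR adj p value 0.0585). VLDLR, a receptor for lipoproteins and reelin, was below the threshold for testing. It was at 20.6, 31.0 and 23.4 CPM in Control and at 5.63, 5.17 and 4.87 CPM in sgTWIST1 clones, and in tumors at 21.2, 19.4, 22.3 and 18.7 CPM in Control and at 3.41, 13.0, 7.96 and 7.94 CPM in sgTWIST1. The groups did not overlap in either setting. With a count filter in place of the RPKM threshold the log2(FC) of VLDLR was 2.18 ± 0.20 in cells (edgeR adj p value 0.000139) and 1.40 ± 0.30 in tumors (edgeR adj p value 0.00496).

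The second comparison was the same contrast in tumors. There 12 of the 41 genes were higher in Control (23.6% of all genes tested) and 3 were lower (23.7% of all genes), and DE genes were 1 upregulated (6.74% of all genes) and 2 downregulated (7.59% of all genes). The median log2(FC) of the 41 genes was 0.12, against −0.00 over all genes. The count of higher genes was near that background and the count of lower genes was below it. Of the 20 genes that passed in cells and the 15 that passed in tumors, 11 passed in both, 55.0% of the first list and 73.3% of the second, and all 11 had the same direction. Over all genes, 65.8% of the cell list and 51.4% of the tumor list passed in both.

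ATF4 was at 307.5, 313.1, 287.5 and 277.4 CPM in Control tumors and at 163.5, 184.6, 151.2 and 206.2 CPM in sgTWIST1 tumors. The log2(FC) of ATF4 was 0.75 ± 0.11 (edgeR adj p value 0.000477). The groups did not overlap, and the exact permutation p of 0.0286 is the smallest that 4 against 4 tumors can give. ATF3 was at 6.86, 7.62, 5.04 and 6.82 CPM in Control tumors and at 3.06, 5.19, 6.69 and 3.93 CPM in sgTWIST1 tumors, with overlap, and did not pass (log2(FC) 0.48, edgeR adj p value 0.165). ATF5 was again lower in Control, at 5.07, 5.29, 3.82 and 3.76 CPM against 6.35, 6.76, 9.46 and 7.13 CPM (log2(FC) −0.73, edgeR adj p value 0.0193). The call of ATF5 was lost without Control tumor 3 or 4.

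TRIB3 was DE in tumors and lower in Control, at 14.3, 10.7, 15.6 and 12.3 CPM against 25.6, 30, 21.5 and 34.8 CPM (log2(FC) −1.08 ± 0.17, edgeR adj p value 0.000649). CHAC1, the gene with the highest log2(FC) in cells, was at 5.85, 3.83, 5.35 and 3.95 CPM in Control tumors and at 2.67, 4.66, 3.87 and 5.59 CPM in sgTWIST1 tumors. Its groups overlapped and it did not pass (log2(FC) 0.18 ± 0.28, edgeR adj p value 0.623). SESN2 was at 7.29, 6.37, 7.26 and 5.76 CPM in Control and at 2.86, 4.59, 4.41 and 5.17 CPM in sgTWIST1 tumors (log2(FC) 0.65 ± 0.23, edgeR adj p value 0.0388), and its call was lost without any 1 of 6 of the 8 tumors.

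SLC7A11 had the highest log2(FC) of the set in tumors, 2.93 ± 0.44 (edgeR adj p value 0.000441). It was at 11.3, 6.20, 6.93 and 6.36 CPM in Control and at 0.755, 1.54, 1.46 and 0.365 CPM in sgTWIST1 tumors, so that the lowest Control tumor was above the highest sgTWIST1 tumor. SLC1A4 was lower in Control, at 9.73, 10.4, 12.3 and 12.6 CPM against 20.4, 27.9, 25.9 and 21.4 CPM (log2(FC) −1.08 ± 0.15, edgeR adj p value 0.000248). SLC7A5 (0.67 ± 0.15) and SLC1A5 (0.67 ± 0.14) passed with higher levels in Control, and SLC3A2 did not (0.39 ± 0.15, edgeR adj p value 0.0562). SLC7A5 was at 133.0, 101.7, 111.5 and 95.3 CPM in Control and at 60.2, 57.7, 81.8 and 78.0 CPM in sgTWIST1 tumors, without overlap.

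Of the enzymes, GPT2 (log2(FC) 0.97 ± 0.14, edgeR adj p value 0.000388), PSAT1 (0.58 ± 0.16) and PHGDH (0.65 ± 0.20), the first enzyme of serine synthesis, passed with higher levels in Control tumors, and the remaining 9 did not pass. GPT2 was at 31.6, 26.1, 32.4 and 25.5 CPM in Control and at 12.4, 13.5, 17.4 and 15.8 CPM in sgTWIST1 tumors. PSAT1 was at 119.5, 76.0, 112.3 and 125.1 CPM in Control and at 70.1, 80.9, 61.6 and 76.3 CPM in sgTWIST1 tumors, and Control tumor 2 lay within the sgTWIST1 range. Among the tRNA synthetases AARS (0.71 ± 0.13), WARS (0.49 ± 0.18) and MARS (0.45 ± 0.12) passed, and the other 9 cytosolic ones did not, with a median log2(FC) of 0.03 over the 12. AARS was at 139.2, 97.1, 144.9 and 137.6 CPM in Control and at 77.5, 81.0, 73.6 and 84.0 CPM in sgTWIST1 tumors. AARS2 was at 39.4, 40.1, 45.0 and 40.7 CPM in Control and at 39.5, 31.9, 44.8 and 40.5 CPM in sgTWIST1 tumors, overlapping groups that did not pass (log2(FC) 0.08 ± 0.11, edgeR adj p value 0.610). STC2 passed with a log2(FC) of 0.73 ± 0.26. The calls of PHGDH and STC2 were each lost in 4 of the 8 fits that left out a tumor, and that of WARS in 6.

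**Figure D3:**
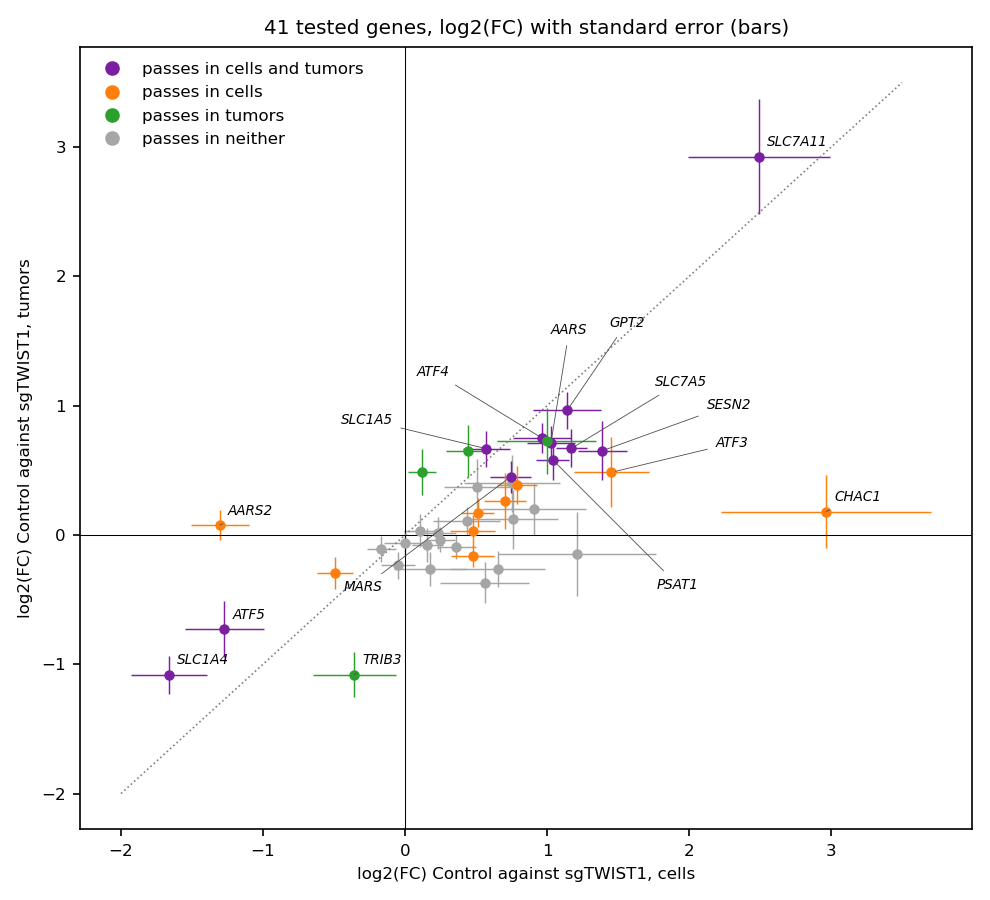
log2(FC) of Control against sgTWIST1 for the 41 tested genes in cells (horizontal axis) and in tumors (vertical axis), with standard errors as bars, colours for where a gene passed and a dotted line of equal values. SLC7A11 lies high on both axes, CHAC1 and AARS2 lie far from 0 in cells and near 0 in tumors, and TRIB3 lies below 0 in tumors.

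Whether the contrast of Control with sgTWIST1 had another size in tumors than in cells was tested as an interaction in a fit of all 4 groups. Of the 41 genes, 1 had a higher log2(FC) in tumors (4.74% of all genes tested) and 2 had a lower one (8.08% of all genes), and with a difference of at least 1 there were 1 (2.84% of all genes) and 1 (5.03% of all genes). AARS2 was the higher one, with a difference of 1.38 ± 0.23 (edgeR adj p value 0.00151). CHAC1 had a difference of −2.80 ± 0.75 (edgeR adj p value 0.0245), which was −1.41 (adj p value 0.0460) without Control clone 2. SARS, the seryl-tRNA synthetase, had one of −0.64 ± 0.17 (edgeR adj p value 0.0216). SARS was at 309.7, 417.2 and 348.0 CPM in Control and at 227.6, 291.6 and 251.8 CPM in sgTWIST1 clones, and in tumors at 185.6, 180.3, 186.3 and 191.3 CPM in Control and at 199.8, 217.3, 193.7 and 221.4 CPM in sgTWIST1. The calls of CHAC1 and SARS were lost without sgTWIST1 clone 1 or 3, which left 1 of the 41 genes, and 7 passed without Control clone 1. The Control against sgTWIST1 log2(FC) of ATF4 did not differ by this test between tumors and cells (difference −0.22 ± 0.23, edgeR adj p value 0.550).

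Tumors were then compared with cells of the same genotype. The amount of RNA and the sequencing lanes differed between tumors and cells, as did the extraction kit by the sample labels though not by the methods, and these cannot be told apart from growth in the mouse. Both comparisons share their samples with those above, so their values stand side by side only. In Control, 1 gene of the 41 was higher in tumors (19.1% of all genes tested) and 25 were lower (18.7% of all genes), and DE genes were 1 upregulated (5.83% of all genes) and 11 downregulated (5.96% of all genes). The median log2(FC) of tumors against cells was −0.64 for the 41 genes, with Control clone 2 included, and 0.01 over all genes. The mean log2 CPM of the 30 genes other than tRNA synthetases was 5.936 in Control clone 2. It was 5.315 and 5.472 in Control clones 1 and 3, and 4.836 to 5.083 in Control tumors. In sgTWIST1 this mean was 4.855 to 5.165 in clones and 4.555 to 4.91 in tumors. No median was calculated without Control clone 2, so the medians of the genotypes were not compared. Without Control clone 2, 22 passed and 9 were DE, and the calls of ATF4, CEBPB, GPT2 and LARS were lost. In sgTWIST1, 1 was higher (22.4% of all genes) and 15 were lower (18% of all genes), and DE genes were 0 upregulated (7.91% of all genes) and 2 downregulated (4.67% of all genes), with a median of −0.41 against 0.01 over all genes. All 4 groups are in 1 fit, and 23 passed in sgTWIST1 when Control clone 2 was left out. Of the genes added, ATF4 (−0.37), ATF5 (−0.54), CEBPB (−0.64) and SARS (−0.32) were lower in tumors. SLC1A4 (0.50), DDIT4 (1.17) and STC2 (0.83) were added as higher in tumors. The cause of this shift was not tested.

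In Control the lowest log2(FC) of tumors against cells was that of CHAC1, −2.43 ± 0.52 (edgeR adj p value 0.00235), or −1.06 without Control clone 2 (adj p value 0.0164). SLC7A11 followed with −2.33 ± 0.45, from 27.9 to 52.5 CPM in the clones to 6.20 to 11.3 CPM in the tumors. In sgTWIST1 it was the lowest, at −2.78 ± 0.49 (edgeR adj p value 0.000596), or −1.98 without sgTWIST1 clone 2. The 2 groups of tumors were thus each below the cultured cells of the same genotype in SLC7A11, while the Control tumors stayed above the sgTWIST1 tumors. AARS2 had the next lowest value in sgTWIST1, −1.51 ± 0.16 (edgeR adj p value 1.2e-05), and −0.13 ± 0.16 in Control, where it did not pass.

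Other genes that were DE and lower in Control tumors than in Control cells were SESN2 (−1.61), ALDH1L2 (−1.35), SLC7A5 (−1.21), PCK2 (−1.18, or −0.80 without Control clone 2), YARS (−1.18), ATF3 (−1.17), AARS (−1.15), TRIB3 (−1.09, or −0.69 without Control clone 2) and SLC3A2 (−1.04). SLC1A4 was the only one of the 41 to be higher in Control tumors (1.10 ± 0.21, edgeR adj p value 0.00105, or 0.93 without Control clone 2), and its level in sgTWIST1 tumors and cells did not differ beyond the threshold (0.52, edgeR adj p value 0.0515). In sgTWIST1 the highest value among those that passed was 0.27 ± 0.10, that of the mitochondrial enzyme MTHFD1L (edgeR adj p value 0.0370). MTHFD1L was at 36.3, 39.1 and 35.3 CPM in sgTWIST1 clones and at 44.3, 41.9, 45.2 and 47.0 CPM in sgTWIST1 tumors, and its call was lost in 6 of the fits that left out a sample. ATF4 was lower in Control tumors than in Control cells (−0.57 ± 0.16, edgeR adj p value 0.0132), a call that was lost without Control clone 2 (−0.37, adj p value 0.0571), and in sgTWIST1 it had a log2(FC) of −0.35 (edgeR adj p value 0.102, or 0.0295 without Control clone 2).

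Most of the 12 cytosolic tRNA synthetases chosen here were lower in tumors than in cells in both genotypes, unlike the synthetases outside this choice. Of these 12, 9 were lower in Control tumors than in cells and 7 in sgTWIST1 tumors, with medians of −0.59 and −0.42. Of the 11 other cytosolic synthetases and scaffold genes, 4 were lower and 0 higher in Control tumors, and 2 were lower and 1 higher in sgTWIST1 tumors. Among the 15 other mitochondrial synthetases tested, 4 were lower and 1 higher in Control tumors, and 3 were lower and 1 higher in sgTWIST1 tumors. Of the 10 genes with a CARE in the promoter, 8 were lower in Control tumors than in cells and 5 in sgTWIST1 tumors, where 1 was higher. Of the 19 without it, 8 and 5 were lower, and 1 was higher in Control tumors. Over all genes tested, 18.7% were lower and 19.1% higher in Control tumors than in cells, and 18% and 22.4% in sgTWIST1 tumors.

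**Figure D4:**
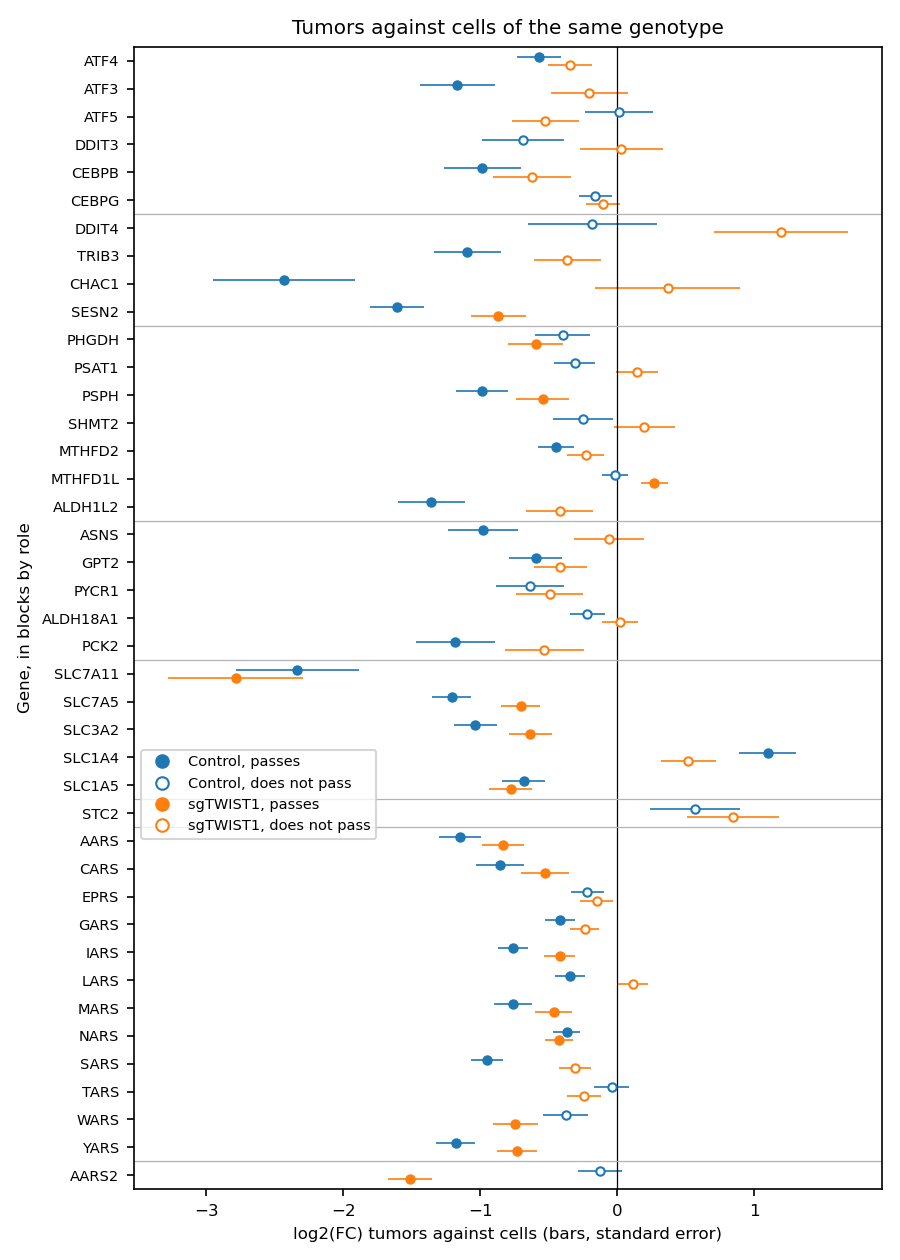
log2(FC) of tumors against cells (horizontal axis, bars for standard errors) for the 41 tested genes (vertical axis, in blocks by role) in Control and in sgTWIST1. Filled points passed the test: 25 of the 26 filled Control points and 15 of the 16 filled sgTWIST1 points lie below 0, with CHAC1 far below 0 in Control and AARS2 far below 0 in sgTWIST1.

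Several of these genes lie in chromosome regions whose other genes moved too. The tested genes within 10 Mb of each member were taken as its neighbours. In cells the median log2(FC) of the neighbours was at least 0.4 for 6 of the 41 genes: PSAT1 on chromosome 9 (0.70, 35 neighbours), AARS (0.64, 104 neighbours), SLC7A5 (0.63, 57 neighbours) and GPT2 (0.49, 39 neighbours) on chromosome 16, MTHFD1L on chromosome 6 (0.47, 47 neighbours), and SLC7A11 on chromosome 4 (0.43, 35 neighbours). TARS on chromosome 5 had the opposite pattern, with a neighbour median of −0.75 beside its own log2(FC) of −0.49. In tumors the neighbour medians were 0.57 for PSAT1, 0.59 for AARS, 0.53 for SLC7A5, 0.39 for GPT2 and 0.44 for SLC7A11, close to those in cells. PSAT1 exceeded its neighbours by 0.34 in cells and by 0.01 in tumors, and AARS by 0.39 and 0.13. The corresponding values were 0.54 and 0.14 for SLC7A5 and 0.65 and 0.58 for GPT2. SLC7A11 exceeded its neighbours by 2.06 in cells and by 2.49 in tumors. ATF4 (neighbour median 0.10 in cells and 0.13 in tumors), ATF3, CHAC1, SESN2, SLC1A4, ATF5 and AARS2 lay beside neighbours whose medians were between −0.21 and 0.13 in cells and tumors. The part of the regions in the results was not tested. In tumors against cells no neighbour median reached 0.4 either way.

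**Figure D5:**
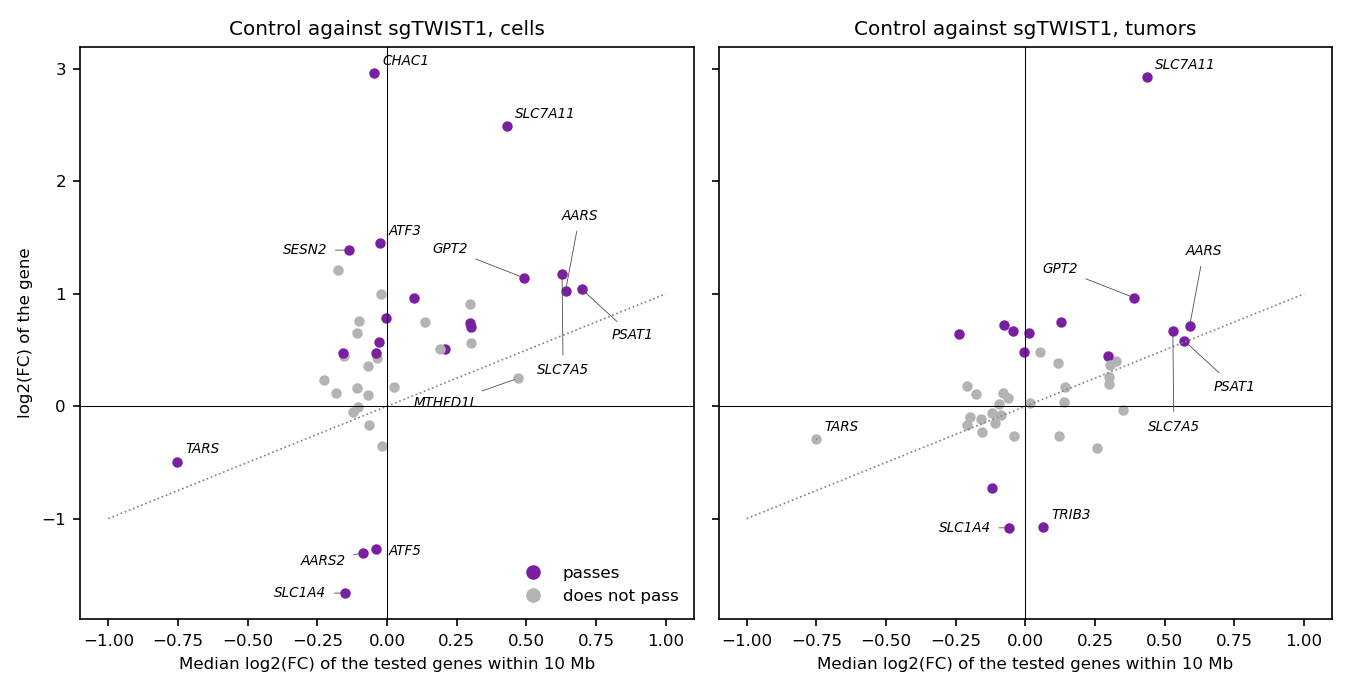
log2(FC) of each of the 41 tested genes for Control against sgTWIST1 (vertical axis) against the median log2(FC) of the tested genes within 10 Mb of it (horizontal axis), in cells and in tumors, with genes that passed in purple and a dotted line of equal values. PSAT1, AARS, SLC7A5 and GPT2 lie to the right near or above the line, TARS lies to the left, and CHAC1, SLC7A11 in both panels and SLC1A4 lie far from the line.

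Genes around ATF4 in the pathway were described from lists, whose counts stand against all-gene shares of 19.4% higher and 17.6% lower in cells and of 23.6% and 23.7% in tumors. None of the 13 genes for the eIF2 kinases, the phosphorylated eIF2 subunit, its exchange factor, its phosphatase subunits and the mitochondrial protease OMA1 was higher in Control cells, 3 were lower and 10 did not pass, and in tumors 5 were lower and 8 did not pass. Of the 12 tested genes of the IRE1 and ATF6 branches of the unfolded protein response, 6 were higher in Control cells and 0 lower, and 6 were higher and 1 lower in tumors. HERPUD1, which helps to degrade proteins of the endoplasmic reticulum, was DE among them in cells (log2(FC) 1.20 ± 0.25, edgeR adj p value 0.00927), beside a neighbour median of 0.64. The other cytosolic synthetases and their scaffold had 3 higher and 2 lower of 11 in cells and 2 higher and 3 lower in tumors.

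The 15 other mitochondrial synthetases tested had 2 higher and 2 lower in cells and 1 higher and 4 lower in tumors. The mitochondrial cysteinyl-tRNA synthetase CARS2 was DE and lower in Control in cells (−1.17 ± 0.13, edgeR adj p value 0.000585) and in tumors (−1.004 ± 0.14, edgeR adj p value 0.000241). Of 10 further reported ATF4 targets that were tested, 1 was higher and 3 were lower in Control cells, and 2 were higher and 3 lower in tumors. GDF15, a stress-induced hormone, was DE in tumors, at 2.32 to 11.7 CPM in Control and at 0.197 to 1.82 CPM in sgTWIST1 (log2(FC) 2.97 ± 0.79, edgeR adj p value 0.0111). CTH, which makes cysteine from cystathionine, was lower in Control tumors (−1.02 ± 0.30, edgeR adj p value 0.0178), at 1.28 to 2.00 CPM against 2.70 to 4.44 CPM.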

How the data were processed

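The authors depleted total RNA of clones and tumors of ribosomal RNA and sequenced single reads. They aligned reads to the human (hg19) and mouse (mm10) genomes together with STAR 2.5.2b, kept in the human table reads that matched both, and deposited expected counts per gene from RSEM 1.3.0, without normalization. The GENCODE version is not given in the sources used here.

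Counts were rounded, and the batches of a clone were summed. Human genes were matched by identifier to a GENCODE annotation of GRCh37 (55538 of 57820, 19404 protein-coding), and genes whose log2 RPKM exceeded 1 in any library were tested with edgeR 4.0.16 (TMM, quasi-likelihood, Benjamini-Hochberg over all genes tested; 10889 genes, 10888 in cells). A gene passed at an adjusted p value under 0.05 and was DE if its log2(FC) was also 1 or more in either direction. Cells and tumors were fitted separately, and tumors against cells and the interaction in 1 fit of all groups. CPM values use TMM, and RPKM values use the joined length of all annotated exons of a gene. Permutation tests of single values were exact and two-sided. P-values measure the spread between these samples, and floors and counts carry counting error only. The script was tested on simulated data. Promoters are from RefSeq (GRCh38.p14).

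The 43 genes and all lists were chosen with earlier results of these data known. All 43 could be named; values in every sample are given for ATF4, for genes DE in a Control against sgTWIST1 comparison or in the interaction, and for the 2 highest and 2 lowest of those passing in tumors against cells. Values of NUPR1, VLDLR, ASNS and the members high in Control clone 2 were added after they had been seen. Other pathway genes are named only where DE in a Control against sgTWIST1 comparison. Same-numbered Control and sgTWIST1 clones deviated together (r = 0.316, 0.283 and 0.100), so the clone number was also fitted as a replicate block, printed where it changes a call. Same-numbered tumors did not.

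Alternatives were the Wald test of DESeq2 1.42.0, DESeq2 size factors, other filters, all gene types, other samples in the fit, the batches taken as separate replicates, only batch 1, the block, and each replicate left out. Human counts per sample were 21426528 to 49991029, at which 3 counts are 0.0600 to 0.140 CPM.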

Additional observations from a re-analysis of the deposited data

Results flagged for a closer look

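For 5 of the 86 sets of 4 tumors (the 43 genes in each tumor group), 1 tumor lay far from the other 3, and chance gives this in about 1 in 20 sets. In Control tumors these were CEBPG in tumor 4, at 79.4 CPM against 62.9 to 65.5 CPM, ALDH1L2 in tumor 1, at 27.6 CPM against 19.2 to 20.2 CPM, SLC7A11 in tumor 1, at 11.3 CPM against 6.20 to 6.93 CPM, and AARS in tumor 2, at 97.1 CPM against 137.6 to 144.9 CPM. In sgTWIST1 tumors it was WARS in tumor 3, at 27.4 CPM against 48.3 to 51.6 CPM.

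The log2(FC) of Control against sgTWIST1 differed between tumors and cells for AARS2 (1.38), CHAC1 (−2.80) and SARS (−0.64), each by the interaction term of edgeR's quasi-likelihood test.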

How the results depend on the processing

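No log2(FC) reversed its sign past the threshold under the alternatives run, and depth limits chiefly NUPR1. With batches as separate replicates, which raises the number of samples without adding clones, 32 genes passed in cells, 25 in sgTWIST1 tumors against cells and 10 in the interaction. With no filter on low counts 9 passed in tumors, and 5 were DE in sgTWIST1 tumors against cells. With the count filter 5 were DE in tumors and 5 in sgTWIST1 tumors against cells, VLDLR among those tested. When samples were left out in turn, 14 to 24 genes passed in cells (DE 8 to 16), 11 to 19 in tumors (DE 2 to 4), 22 to 28 in Control tumors against cells (DE 9 to 17), 12 to 23 in sgTWIST1 tumors against cells (DE 2 to 3) and 1 to 7 in the interaction (DE 1 to 4). The replicate block gave 26 in cells and 14 in tumors, where the numbers are shared by name only (r = −0.04, 0.28, −0.19 and 0.02). There it lost SESN2 (adjusted p 0.0743) and WARS (0.0530) and added SLC3A2 (0.0453). DESeq2 gave 26 in cells. The cause of these shifts was not tested.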
